A study of Schizosaccharomyces pombe with 6 samples.

Results

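The RNAs described here are the non-coding transcripts of fission yeast (Schizosaccharomyces pombe) that were most abundant in normally growing cells. Members were the features whose systematic identifier starts with SPNCRNA and whose mean raw level over the 3 wt libraries was at least 5 CPM (raw counts scaled by the library total). This took 158 of 1535 SPNCRNA features and of 7269 counted features in all. Members were thus chosen by their wt levels, which are given as a description. The rule did not read the mutant libraries, but wt is one side of the mutant against wt contrast. Just outside the threshold lay SPNCRNA.1477, SPNCRNA.1297 and SPNCRNA.1576, at raw wt means of 4.86, 4.92 and 4.95 CPM. Just inside lay SPNCRNA.1666, SPNCRNA.830 and SPNCRNA.335, at 5.14, 5.16 and 5.17 CPM.

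RNA was taken from haploid vegetative cells of 2 genotypes, wt and sad1.2 csi1Δ (the mutant below), with 3 biological replicates of each. The mutant carries the sad1.2 allele of the gene for Sad1, a protein of the inner nuclear membrane at the spindle pole body, together with a deletion of csi1, whose product links centromeres to that site. Both genotypes were grown as asynchronous 30 mL cultures in rich medium at 30 °C to an optical density of 0.5, and 5 µg of total RNA per sample went through oligo-dT selection before paired-end sequencing. No strain with sad1.2 alone or csi1Δ alone is among the samples analysed here, so the parts of the 2 changes cannot be told apart.

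Fission yeast transcribes much of its genome outside coding genes, from spaces between genes and from the strand opposite to them. Many such RNAs receive a poly(A) tail and are then degraded by the nuclear exosome, a complex that digests RNA from its end, with the help of adaptors that recognise the transcript. Some act in cis: in this yeast, transcription of a non-coding RNA across a promoter can hold the neighbouring gene down, as described for genes of sexual differentiation and of phosphate supply. A minority have a defined role as RNA, such as the RNA subunit of telomerase.

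The label long non-coding RNA held for most of the members, with exceptions. Of the 158, 154 matched the reference annotation of assembly ASM294v3, where 151 were lncRNAs, 2 were snoRNA features (snoR61 and SPNCRNA.1483, the latter a primary transcript) and 1, SPNCRNA.120, was a small non-coding RNA known from stationary phase and quiescence. SPNCRNA.129, SPNCRNA.1366, SPNCRNA.59 and SPNCRNA.99 had no match. Lengths ran from 118 to 5317 nt with a median of 1501 nt, and 1 member was shorter than 200 nt, the usual lower limit for a long non-coding RNA. A single exon was annotated for 152 members and 2 exons for 2. The annotation describes 111 only as non-coding RNA and 32 as a possible alternative UTR of a coding gene. By chromosome, 60 of 633 SPNCRNA features on I were members (9.48%), 57 of 525 on II (10.9%) and 37 of 273 on III (13.6%).

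How the reads were counted bears on most members. Of the 158, 63 overlapped no other counted feature, 64 overlapped one on the opposite strand only, 15 had overlaps on both strands and 12 on the same strand only. Of 338 protein-coding genes that lie wholly under features of the opposite strand, 321 (94.97%) had fewer than 10 counts over all 6 libraries, against 55 of 2183 genes with no overlap (2.52%). Reads in shared stretches were thus for the most part given to neither feature, as in counting that does not use strand. A member's counts therefore come mainly from its own bases, those that no other counted feature covers at ASM294v3 positions. The members had a median of 998 nt of them. Features of that annotation that were not counted do not enter this measure. Reads on own bases may come from either strand, so a level need not be that of the annotated strand's RNA alone. The coding gene rhp14, of nucleotide excision repair, lies under SPNCRNA.1368 and was listed at 0 in wt, while 49 of 86 coding genes opposite a member kept enough counts to be tested. Levels of different RNAs are compared per kb of these own bases, and CPM values serve to compare libraries.

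Total counts per library lay between 19074531 and 19951875. A member had between 48 and 3410 counts in a library, with a median of 259, and all 158 passed the expression filter of the test, as they had at least 2 raw CPM in every library. All levels from here on are CPM on TMM-scaled library sizes, as edgeR computes them, unless called raw. The deleted gene csi1 fell from 64.3 ± 0.834 to 7.60 ± 3.82 CPM (SD, n = 3; log2 fold change −3.08, SE 0.38, edgeR adjusted p = 0.0188). Wt replicate 2 and mutant replicate 3 stood apart from the other libraries of their genotype, and values without them are given where they matter. Of 8 markers of growing cells 7, such as act1 and tdh1, were abundant in both genotypes, with sums of 52906 to 59044 CPM in wt and 39857 to 53281 CPM in the mutant, and adh1 was listed near 0. Of 8 sporulation markers, spo6, meu14, spn5 and mde2 were at 0 in every library, and the 8 summed to between 216 and 264 CPM in wt and between 225 and 245 CPM in the mutant, most of it spo15 at 209 and 186 CPM. Of this list mei4 and isp3 had higher means in the mutant, isp3 at 19.3 ± 5.22 CPM in wt and 36.3 ± 14.9 CPM in the mutant (SD, n = 3; log2 fold change 0.91, edgeR adjusted p = 0.181).

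In wt, the members' levels ran from 5.37 to 100.7 CPM with a median of 11.6. Per kb of own sequence the members' wt median was 12.2 CPM, and that of the protein-coding genes that entered the test 54.3, so the members were well expressed only in the sense of the rule. The 5 members with the highest CPM, without length scaling, were SPNCRNA.1115, rse1, SPNCRNA.1096, SPNCRNA.1443 and SPNCRNA.781. Per kb of own sequence the short SPNCRNA.120 came first at 376 CPM per kb in wt, followed by SPNCRNA.1096 at 125, SPNCRNA.1115 at 117, SPNCRNA.105 at 99.5 and snoR61 at 84.6.

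Each of these most abundant RNAs except rse1 overlapped between the genotypes. SPNCRNA.1115, on chromosome III, stood at 126, 59.9 and 116 CPM in wt and at 114, 115 and 90.2 CPM in the mutant. Its low wt value belongs to wt replicate 2. SPNCRNA.1096, on the same chromosome, read 76.5, 112 and 84.1 CPM in wt and 68.0, 68.7 and 88.1 CPM in the mutant. SPNCRNA.1443 read 74.0, 90.4 and 68.9 CPM in wt and 76.2, 69.4 and 95.1 CPM in the mutant. In both, the 2 libraries that stood apart gave the highest value of their genotype. SPNCRNA.781 was even in the mutant, at 53.8, 53.8 and 53.4 CPM, inside the wt values of 49.6, 64.6 and 50.2 CPM. SPNCRNA.120 stood at 44.4 ± 9.40 CPM in wt and 49.9 ± 2.34 CPM in the mutant (SD, n = 3; log2 fold change 0.17, edgeR adjusted p = 0.574).

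The median coefficient of variation of the members was 15.1% over the 3 wt libraries and 13.9% over the 3 mutant libraries. At 5 to 10 CPM it was 17.4% in wt and 14.7% in the mutant for the members, and 13.3% and 16.7% for coding genes of that level. At 10 to 20 CPM it was 16.0% and 14.0% for the members, and 14.0% and 13.7% for coding genes. At 20 to 40 CPM it was 8.55% in wt and 10.8% in the mutant for the members, and 10.7% and 10.5% for coding genes. At 40 CPM or more it was 15% and 12.2% for the 12 members, and 9.17% and 8.69% for coding genes. By these medians the members were the more variable in wt except at 20 to 40 CPM. In the mutant they were so except at 5 to 10 CPM. The 5 members of largest wt variation were SPNCRNA.99, SPNCRNA.1299, SPNCRNA.388, SPNCRNA.1527 and SPNCRNA.1560, with coefficients between 44.5% and 64.6%. SPNCRNA.99 read 6.76, 20.01 and 7.64 CPM in the 3 wt libraries, and SPNCRNA.388 read 15.7, 51.8 and 35.0 CPM. In 91 of the 158 members wt replicate 2 had the highest wt value. The mutant libraries were uneven as well: replicate 1 was the highest of the 3 in 89 members and replicate 3 the lowest in 91.

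The question put to the members by the design is how their RNA differs between sad1.2 csi1Δ and wt. In the mutant, 9 of the 158 were called higher and none lower, and DESeq2 called none lower either. The 9 were SPNCRNA.1600, SPNCRNA.1055, SPNCRNA.1185, SPNCRNA.1133, SPNCRNA.1287, SPNCRNA.279, SPNCRNA.1666, SPNCRNA.1368 and SPNCRNA.1607, with rises between 0.86 and 1.98 on the log2 scale. The test was edgeR's quasi-likelihood test over 4941 features with an adjusted p under 0.05, and over all of them 2.29% were called higher and 0.121% lower. Of the members 5.70% were called higher, as were 2.01% of the protein-coding genes in the same range of wt levels. The share was 7.63% for the tested SPNCRNA features under 5 CPM in wt (29 of 380). Those coding genes shared only the range: their median wt level was 52.0 CPM, against 11.6 CPM for the members. Shares by class of level lay closer together and are given below. At an unadjusted p under 0.05, 44 members were higher and 2 lower, against 14.5% and 8.12% of all features tested. The calls depend on single libraries: leaving out wt replicate 1 or 3, or mutant replicate 2, gave a count of 0 among the members and 0 among all features, and leaving out wt replicate 2 together with mutant replicate 3 gave 50, where 14.3% of all features were called higher. In each of these settings the 9 kept a positive log2 fold change, which for SPNCRNA.1600 lay between 1.17 and 1.23 in the settings without a call.

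**Figure D1:**
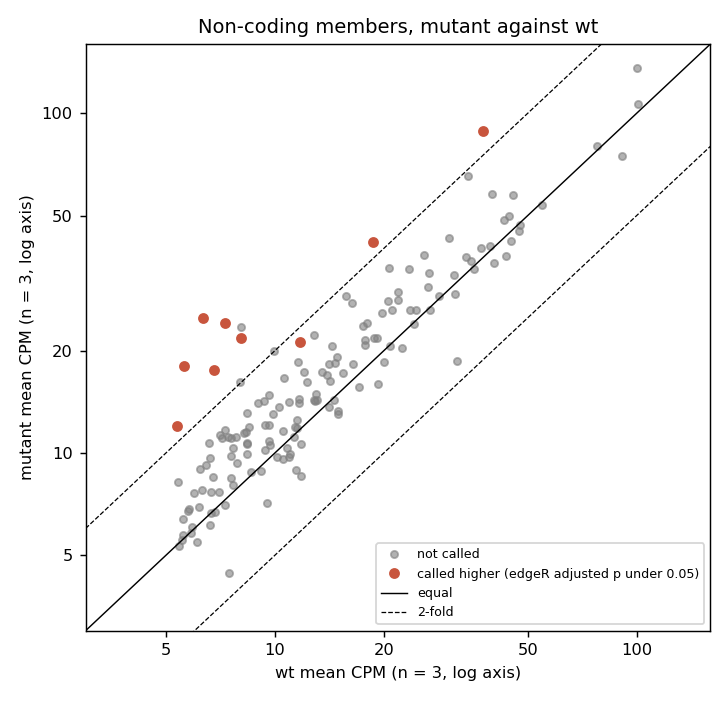
Mean level of each of the 158 members in the mutant (vertical axis) against wt (horizontal axis), both in TMM-scaled CPM on log axes, n = 3 libraries each; the solid line marks equal levels and the dashed lines a 2-fold difference. The 9 members called higher by edgeR are red, and all lie above the line of equality.

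Most other members leaned the same way by less than could be called. Of the 158, 118 had a positive log2 fold change, against 50.7% of all features tested. Their median was 0.22, while that of all tested features was 0.00, that of coding genes −0.02 and that of coding genes in the same range of wt levels 0.04. The last set was more abundant, with a median wt level of 52.0 CPM against 11.6 CPM. Without mutant replicate 1 the members' median was 0.13. The 380 tested SPNCRNA features under 5 CPM had a median of 0.67, with 350 positive and with every mutant library above wt in 46.1% of them. The difference between the members and these weaker RNAs was not tested, and the wt level divides them. In 47 members every mutant library lay above every wt library, against 16.7% of all features, and in 3 every mutant library lay below, against 13.8%. Those 3 were SPNCRNA.129, SPNCRNA.1310 and SPNCRNA.1483, which were named after their values were seen. A rise of at least 2-fold was measured in 11 members and a fall of that size in none.

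As a share of all counts, the members took 0.271%, 0.267% and 0.265% in the wt libraries and 0.411%, 0.335% and 0.315% in the mutant ones. The groups did not overlap. The means were 0.268 ± 0.0031% and 0.354 ± 0.0509% (SD, n = 3), a ratio of 1.32. A two-sided exact permutation test over libraries gave p = 0.1, the smallest that 3 against 3 allows. These shares are of raw totals, without TMM scaling. By library size only the members' median log2 fold change was 0.35, against 0.22 with TMM scaling. The median log2 ratio of the members to their wt mean was 0.32, 0.24 and 0.12 in mutant replicates 1, 2 and 3, and −0.05, 0.10 and −0.03 in the wt libraries. For coding genes of the same range it was 0.07, 0.02 and 0.05 in the mutant libraries. By this measure mutant replicate 3 was closest to wt replicate 2.

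**Figure D2:**
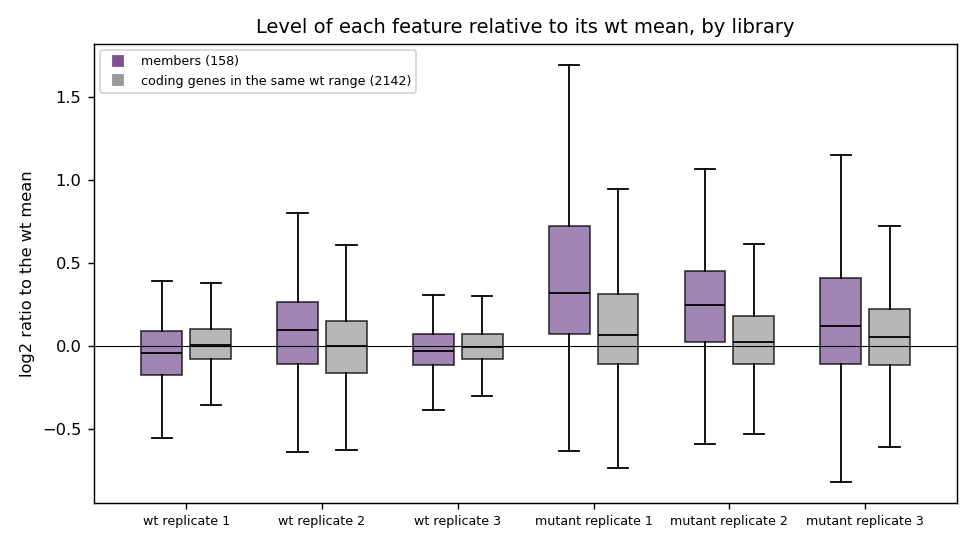
Log2 ratio of each feature's level to its own mean over the 3 wt libraries, by library, for the 158 members (purple) and the 2142 protein-coding genes in the same range of wt levels (grey); boxes span the quartiles with the median as a line, and single features beyond the whiskers are not drawn. The member medians in the mutant are 0.32, 0.24 and 0.12, and those of the coding genes 0.07, 0.02 and 0.05.

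Weakly expressed coding genes also gained in the mutant libraries. The 68 coding genes read here overlap no other counted feature. Their mean over all 6 libraries was 0.5 to 5 raw CPM per own kb. The median gain over the wt mean was 1.82, 0.863 and 0.449 raw CPM per own kb in mutant replicates 1, 2 and 3. In the mutant mean 59 of the 68 were higher. The mutant libraries took part in choosing these genes, so part of this gain may be built in, and raw CPM is not TMM-scaled. The median gain of the 153 members with own bases was 6.58, 3.14 and 1.15 on the same scale. No limit on level was set for the members, whose wt median was 12.2 CPM per own kb. The sizes of the gains are thus not compared at like levels. The order of the 3 mutant libraries was the same in both sets. With the coding genes' gain subtracted from the mutant libraries, an alternative added after the data were seen, 5 members were called, against 1.5% of all features, and the members' median log2 fold change was 0.17. The 5 were SPNCRNA.1600, SPNCRNA.1055, SPNCRNA.1185, SPNCRNA.1133 and SPNCRNA.1287. The other 4 no longer passed, at log2 fold changes close to those without subtraction: 1.66 for SPNCRNA.279, 1.16 for SPNCRNA.1666, 0.83 for SPNCRNA.1368 and 1.39 for SPNCRNA.1607, with edgeR adjusted p between 0.0539 and 0.0661.

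The rise was larger at lower wt levels, in coding genes as in the members. Over all features tested, 2.29% were called higher. Of the 66 members at 5 to 10 CPM 6 were called higher (9.09%), with a median of 0.36 on the log2 scale. Of the 127 coding genes at that level 8 were (6.30%), with a median of 0.29. At 10 to 20 CPM the medians were 0.20 for 54 members (2 called higher, 3.70%) and 0.14 for 232 coding genes (8, 3.45%). At 20 to 40 CPM they were 0.13 for 26 members (1, 3.85%) and 0.08 for 482 coding genes (13, 2.70%). At 40 CPM or more they were 0.01 for 12 members (0 called) and 0.00 for 1301 coding genes (14, 1.08%). In each class the members' median log2 fold change lay above that of coding genes, but their median wt CPM lay below. For members and coding genes that level was 7.45 and 7.79 CPM in the lowest class and 47.4 and 69.5 CPM in the highest. The levels that form these classes are the wt side of the same contrast, so this is a description.

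**Figure D3:**
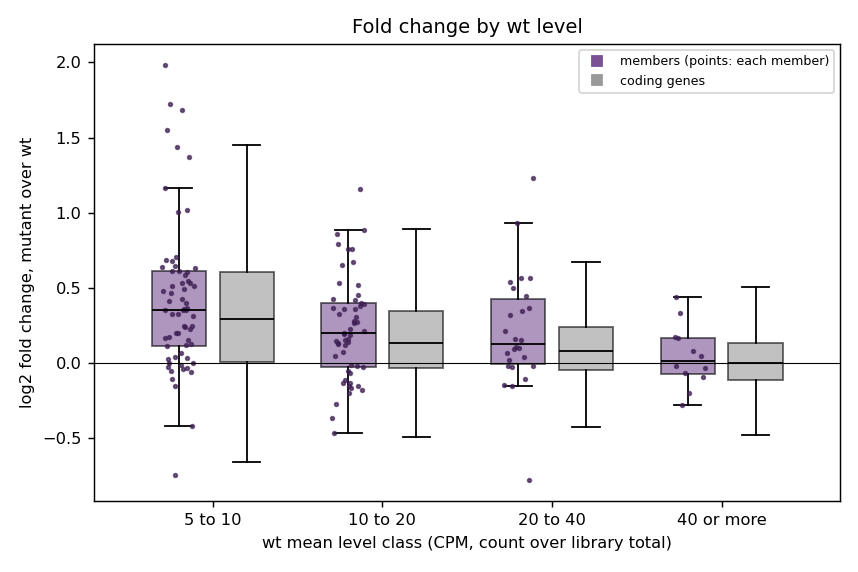
Log2 fold change, mutant over wt, by class of raw wt mean level in CPM, for members (purple, each member a point) and protein-coding genes (grey, points beyond the whiskers not drawn); boxes span the quartiles with the median as a line. Member medians go from 0.36 in the lowest class to 0.01 in the highest, and coding medians from 0.29 to 0.00.

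SPNCRNA.1600 had the smallest p of the members. It is an 809 nt RNA on chromosome II, annotated as a possible alternative UTR, that overlaps no other counted feature. It lies between csi1, on the opposite strand, and dcd1, on its own strand. It read 38.0, 40.8 and 34.4 CPM in wt and 86.4, 89.6 and 89.7 CPM in the mutant, where the libraries were nearly equal and far above wt (log2 fold change 1.23, SE 0.09, edgeR adjusted p = 0.00639). Since csi1 is the deleted gene, the altered locus borders this RNA in every mutant library, and its part in the rise was not tested. On its other side dcd1 stayed at 124 ± 4.33 CPM in wt and 125 ± 11.7 CPM in the mutant (SD, n = 3; log2 fold change 0.01, edgeR adjusted p = 0.956).

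The other changed locus also has a member beside it. SPNCRNA.1501, named after its values were seen, lies next to sad1. It read 10.6, 8.80 and 10.5 CPM in wt and 23.9, 21.3 and 14.7 CPM in the mutant, without overlap, but was not called (log2 fold change 1.00, SE 0.21, edgeR adjusted p = 0.0586). The gene sad1 itself rose from 81.8 ± 1.66 to 153 ± 6.81 CPM (SD, n = 3; log2 fold change 0.90, SE 0.07, edgeR adjusted p = 0.00639).

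SPNCRNA.1055, SPNCRNA.1185 and SPNCRNA.279 had the largest rises. SPNCRNA.1055, on chromosome I beside gpm1, the phosphoglycerate mutase gene of glycolysis, read 5.24, 7.26 and 6.44 CPM in wt and 24.4, 22.3 and 28.3 CPM in the mutant (log2 fold change 1.98, SE 0.17, edgeR adjusted p = 0.00639). The annotation calls it a possible alternative UTR, and it shares part of its length with SPAC26F1.07 on the same strand. That gene was at 544 ± 57.9 CPM in wt and 601 ± 134 CPM in the mutant and was not called (SD, n = 3; edgeR adjusted p = 0.662), and gpm1 was not called (log2 fold change −0.16, edgeR adjusted p = 0.679).

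SPNCRNA.1185, on chromosome III near srk1, a kinase gene of the stress response, stood at 7.67, 7.43 and 6.81 CPM in wt and at 29.6, 21.4 and 21.4 CPM in the mutant. The wt values were close together and far below every mutant value (log2 fold change 1.72, SE 0.17, edgeR adjusted p = 0.0107). Its opposite-strand partner SPCC1322.09 had a log2 fold change of 0.19 (edgeR adjusted p = 0.464). The flanking gene knh2 had 0.63 (edgeR adjusted p = 0.134).

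SPNCRNA.279, on chromosome I, was the called member with a called neighbour on its own strand. It read 6.56, 6.002 and 4.31 CPM in wt and 25.3, 16.0 and 12.9 CPM in the mutant (log2 fold change 1.68, SE 0.29, edgeR adjusted p = 0.0418). The neighbour hry1 read 0.353, 0.114 and 0.260 CPM in wt and 11.2, 9.52 and 3.07 CPM in the mutant (log2 fold change 4.97, SE 0.65, edgeR adjusted p = 0.0231). In both, mutant replicate 1 was the highest and replicate 3 the lowest. The gene on the other side, sul2, was not called (log2 fold change 0.32, edgeR adjusted p = 0.509).

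SPNCRNA.1133, between the eisosome gene pil1 and duc1 on chromosome III, read 19.9, 19.1 and 17.2 CPM in wt and 47.3, 39.4 and 38.6 CPM in the mutant (log2 fold change 1.16, SE 0.13, edgeR adjusted p = 0.0131). SPNCRNA.1287, on the same chromosome beside taf13, a gene of the general transcription factor TFIID, read 6.71, 6.97 and 6.70 CPM in wt and 21.3, 16.3 and 15.2 CPM in the mutant (log2 fold change 1.37, SE 0.17, edgeR adjusted p = 0.0182). Both RNAs overlap no other counted feature, and in both mutant replicate 1 was the highest library. The annotation calls SPNCRNA.1287 a possible alternative UTR, and taf13 lies on the same strand. Neither flanking coding gene of SPNCRNA.1133 was called, with log2 fold changes of −0.16 for pil1 and 0.03 for duc1, and taf13 was at 0.04 (edgeR adjusted p = 0.591, 0.918 and 0.832).

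The remaining called members lay closest to the threshold of the test. SPNCRNA.1666, between ilv5 and met6, genes of branched-chain amino acid and methionine synthesis, stood at 4.94, 5.72 and 5.46 CPM in wt and at 14.1, 12.9 and 9.04 CPM in the mutant (log2 fold change 1.16, SE 0.21, edgeR adjusted p = 0.0440). SPNCRNA.1368, which lies over rhp14, stood at 9.53, 13.3 and 12.4 CPM in wt and at 22.1, 20.7 and 20.9 CPM in the mutant (log2 fold change 0.86, SE 0.15, edgeR adjusted p = 0.0440). SPNCRNA.1607 stood at 10.4, 5.37 and 8.42 CPM in wt and at 26.3, 21.7 and 17.5 CPM in the mutant (log2 fold change 1.44, SE 0.27, edgeR adjusted p = 0.0467). The groups overlap in none of these, as in none of the 9 called members. Opposite SPNCRNA.1607, SPBPB7E8.02 varied widely in both genotypes, at 134 ± 69.6 and 150 ± 65.9 CPM (SD, n = 3), and was not called (edgeR adjusted p = 0.877).

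**Figure D4:**
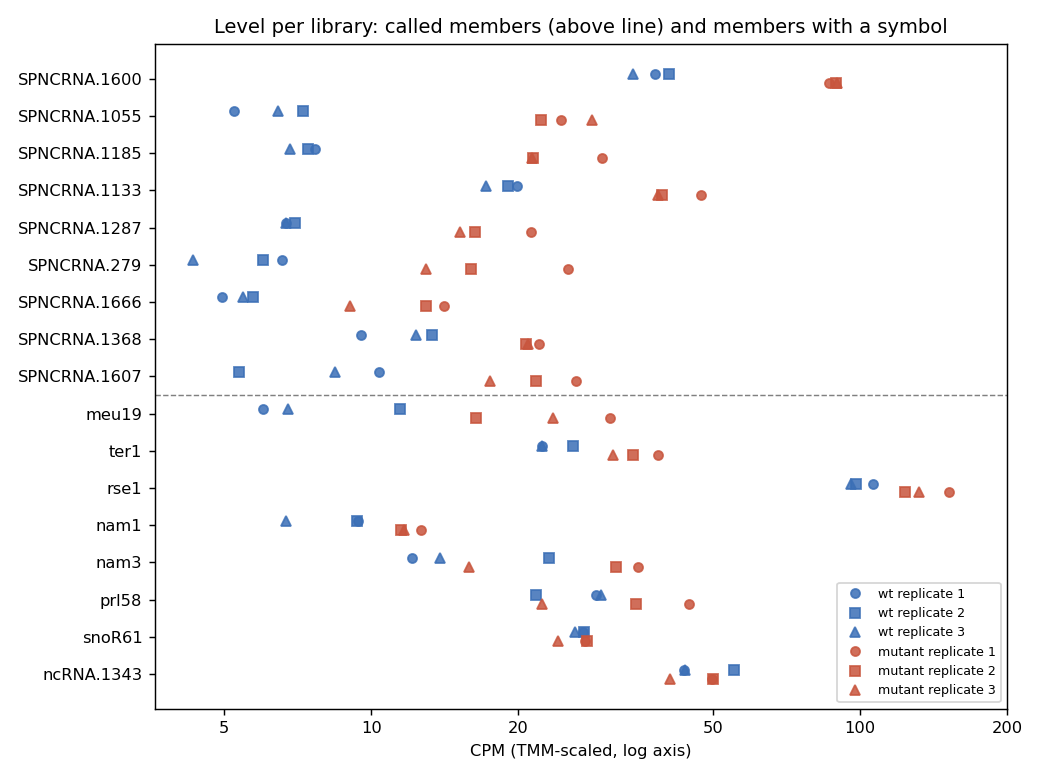
Level of the 9 members called higher (above the dashed line) and of the 8 members with a gene symbol (below it) in each library, in TMM-scaled CPM on a log axis; blue marks wt, red the mutant, and the symbol gives the replicate number. In the 9 called members every mutant library lies above every wt library, while snoR61, ncRNA.1343 and prl58 overlap.

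Of the members with a symbol, 8 in all, none was called. In rse1, ter1, nam1 and meu19 every mutant library lay above every wt library. That held for 16.7% of all features tested and for 47 of the 158 members. The RNA rse1 (SPNCRNA.111) is annotated as a cis-acting repressor of ste11, the gene for the main transcription factor of sexual differentiation. It read 106, 98.3 and 95.9 CPM in wt and 152, 124 and 132 CPM in the mutant (log2 fold change 0.44, SE 0.10, edgeR adjusted p = 0.0646). Its neighbour ste11 overlapped between the genotypes, at 83.3, 32.4 and 55.9 CPM in wt and 77.4, 45.2 and 40.4 CPM in the mutant (log2 fold change −0.07, SE 0.37, edgeR adjusted p = 0.935). The other flanking gene, the4, and the opposite-strand gene cyc3 were not called (log2 fold changes −0.22 and −0.03).

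The telomerase RNA ter1 (SPNCRNA.214), which carries the template for telomere repeats, read 22.3, 25.8 and 22.3 CPM in wt and 38.7, 34.3 and 31.3 CPM in the mutant (log2 fold change 0.56, SE 0.12, edgeR adjusted p = 0.0631). Its protein partners were not called: trt1, the catalytic subunit, had a log2 fold change of −0.07 (SE 0.11) and est1, a regulatory subunit, one of 0.01 (SE 0.14), with edgeR adjusted p = 0.748 and 0.987. The libraries were made from oligo-dT selected RNA, and any telomerase RNA without a poly(A) tail is not measured.

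The RNA nam1 (SPNCRNA.1459) is annotated as repressing byr2, a kinase gene of the pheromone pathway. It read 9.38, 9.37 and 6.70 CPM in wt and 12.6, 11.5 and 11.6 CPM in the mutant (log2 fold change 0.49, SE 0.18, edgeR adjusted p = 0.168). The gene byr2 read 58.7, 41.9 and 54.9 CPM in wt and 74.7, 68.1 and 67.6 CPM in the mutant (log2 fold change 0.44, SE 0.14, edgeR adjusted p = 0.136). Both were above wt in every mutant library, and neither was called.

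The poly(A)-bearing RNA meu19 (SPNCRNA.29) belongs to the transcripts named for their upregulation in meiosis. It read 6.001, 11.4 and 6.76 CPM in wt and 30.8, 16.4 and 23.6 CPM in the mutant (log2 fold change 1.55, SE 0.32, edgeR adjusted p = 0.0586), the largest rise among the members not called. Among sporulation and meiosis markers measured in the same libraries, mei4, the gene for a meiotic transcription factor, went from 4.98 to 14.6 CPM. It was not called either (log2 fold change 1.55, edgeR adjusted p = 0.0571). The other markers of that list did not move together. The log2 fold change was 0.91 for isp3 and −0.17 for spo15, the most abundant, and spo6, meu14, spn5 and mde2 were at 0 in every library. The meiotic regulator gene mei2, named after its values were seen, rose from 16.8 ± 1.49 to 43.9 ± 17.1 CPM (SD, n = 3; log2 fold change 1.39, SE 0.26, edgeR adjusted p = 0.0487), with every mutant library above wt. The part of these meiotic genes' levels in the members' rises was not tested. The RNA nam3 (SPNCRNA.1696) overlapped, at 12.1, 23.1 and 13.8 CPM in wt and 35.1, 31.8 and 15.9 CPM in the mutant (log2 fold change 0.76, SE 0.35, edgeR adjusted p = 0.259). The other poly(A)-bearing RNA, prl58 (SPNCRNA.58), overlapped as well (log2 fold change 0.35, SE 0.26, edgeR adjusted p = 0.473).

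The RNAs snoR61 (SPNCRNA.445) and ncRNA.1343 (SPNCRNA.1343) were close to equal. The snoRNA read 27.1, 27.2 and 26.1 CPM in wt and 27.4, 27.7 and 24.2 CPM in the mutant (log2 fold change −0.02, SE 0.10, edgeR adjusted p = 0.932). The RNA ncRNA.1343, the bidirectional partner of the RNA that represses the phosphate-regulated gene tgp1, read 43.7, 55.2 and 44.0 CPM in wt and 49.9, 50.0 and 41.0 CPM in the mutant (log2 fold change −0.02, SE 0.14, edgeR adjusted p = 0.955). Its neighbour tgp1, a glycerophosphodiester transporter gene, read 14.5, 8.57 and 14.2 CPM in wt and 32.1, 29.9 and 17.0 CPM in the mutant and was not called (log2 fold change 1.08, SE 0.30, edgeR adjusted p = 0.104).

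**Figure D5:**
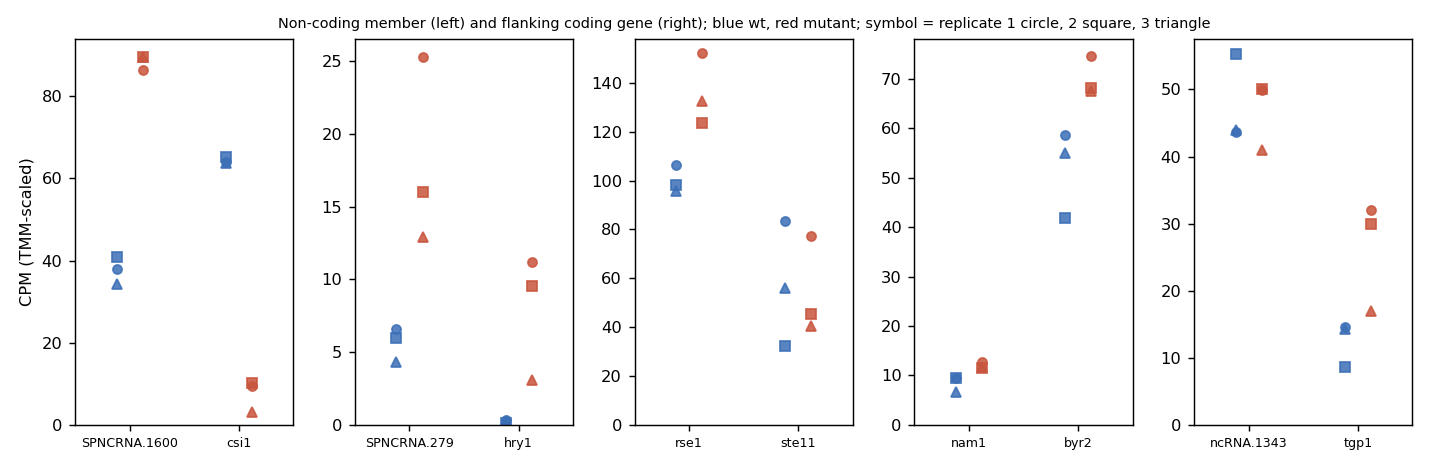
Level in each library, in TMM-scaled CPM on linear axes that start at 0, of 5 members (left in each panel) and a flanking coding gene (right); blue marks wt, red the mutant, and the symbol gives the replicate number. SPNCRNA.1600 is higher and csi1 lower in the mutant, SPNCRNA.279 and hry1 are both higher, and ste11 overlaps between the genotypes while rse1 does not.

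None of the lowest members passed the test. SPNCRNA.1095, on chromosome III, read 21.8, 43.4 and 30.5 CPM in wt and 12.5, 23.4 and 19.9 CPM in the mutant (log2 fold change −0.78, SE 0.31, edgeR adjusted p = 0.202). SPNCRNA.1299, flanked by ribosomal RNA features, read 2.93, 11.7 and 7.80 CPM in wt and 4.59, 3.76 and 5.01 CPM in the mutant (log2 fold change −0.74, SE 0.46, edgeR adjusted p = 0.385). In both the genotypes overlapped, and wt replicate 1 was the lowest wt library. In SPNCRNA.129 the genotypes did not overlap, at 11.1, 13.1 and 11.3 CPM in wt and 9.50, 7.67 and 8.58 CPM in the mutant (log2 fold change −0.46, SE 0.15, edgeR adjusted p = 0.149). SPNCRNA.1310 had a log2 fold change of −0.42 and SPNCRNA.99 one of −0.36, with edgeR adjusted p = 0.226 and 0.690.

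Over all features tested, 2.29% were called higher. By position, 5 of the 63 members that overlap no other counted feature were called higher (median log2 fold change of the 63, 0.34). So were 4 of the 79 with a counted feature on the opposite strand (median 0.19). Of the 12 with a same-strand overlap only, none was called (median 0.32). The difference between these classes was not tested. By annotation, 3 of the 32 possible alternative UTRs were called higher (median 0.16) and 6 of the 111 plain non-coding RNAs (median 0.24). The 43 members of 2000 nt or more had 1 call and a median of 0.32, and the 44 under 1000 nt had 3 calls and a median of 0.20.

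Of 51 opposite-strand features that could be tested, the only one called was slp1, whose product activates the complex that starts anaphase, with a log2 fold change of 0.77 (edgeR adjusted p = 0.0261). Its member SPNCRNA.703, named for this partner after its values were seen, was at 11.8 ± 2.42 CPM in wt and 10.6 ± 0.821 CPM in the mutant (SD, n = 3; log2 fold change −0.15, edgeR adjusted p = 0.668). The share called, 1.96%, was near the 2.29% of all features called higher, and the median log2 fold change of the 51 was 0.00. Over 49 pairs of a member and a coding partner, the log2 fold changes had a Pearson correlation of 0.0466 and a Spearman correlation of 0.0193. These pairs come from the same 6 libraries and are not independent.

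Among 228 tested coding genes that flank a member, 3 (1.32%) were called higher, below the 2.29% of all features, and 1, csi1, lower, with a median log2 fold change of −0.03. Over 230 pairs of a member and a flanking coding gene, the log2 fold changes correlated at 0.165 (Pearson) and 0.217 (Spearman). The 87 pairs on the same strand gave 0.407 and 0.350, and without hry1 the remaining 86 gave 0.262 and 0.328. The pairs share libraries, depth and scaling, so these are descriptions. Members also lie next to each other, in 9 adjacent pairs that hold 17 members. In the run SPNCRNA.1423, SPNCRNA.1424 and SPNCRNA.1425, on 1 strand, the log2 fold changes were 0.35, 0.67 and 0.36, and in the abundant pair SPNCRNA.1096 and SPNCRNA.1097 they were −0.28 and −0.07. None of these 17 was called, and the pairs were named after their values were seen.

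The genes that make, trim and degrade such RNAs were read from lists of names. Of 49 tested genes for the nuclear exosome and its cofactors, cytoplasmic RNA decay, cleavage and termination, and RNA interference, none was called by edgeR. At an unadjusted edgeR p under 0.05 there were 7 (2 higher, 5 lower), against 14.5% higher and 8.12% lower of all features tested. DESeq2 called 1 of these genes, and over all its tested features it called 6.63% higher and 2.7% lower. The smallest p-values among the exosome genes belonged to air1 and rrp40. The RNA-binding cofactor gene air1 was at 62.6 ± 2.66 CPM in wt and 52.2 ± 1.08 CPM in the mutant (SD, n = 3; log2 fold change −0.26, SE 0.08, edgeR adjusted p = 0.136), and the exosome cap subunit gene rrp40 at 94.0 ± 5.87 and 78.4 ± 4.46 CPM (SD, n = 3; log2 fold change −0.26, SE 0.09, edgeR adjusted p = 0.145). Of the 24 exosome genes, 22 had a negative log2 fold change, against 49.3% of all features tested, with a median of −0.16. In 10 of them every mutant library lay below every wt library, against 13.8% of all features. The catalytic subunits dis3 and rrp6 were at −0.17 and −0.10 (edgeR adjusted p = 0.230 and 0.786). The RNA interference genes ago1, dcr1 and rdp1 were at 0.21, 0.25 and 0.19 and were not called either (edgeR adjusted p = 0.198, 0.404 and 0.425).

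In the authors' deposited table, 22 of the 158 members were higher and none lower at an adjusted p under 0.05, where 6.3% of all its features with an adjusted p were higher and 2.54% lower. DESeq2 run on the same counts also called 22 members higher, against 6.63% of the features it tested. All 9 members called above are among the 22. The authors' deposited table also lists as higher rse1 at a log2 fold change of 0.39 and an adjusted p of 0.0130, ter1 at 0.49 and 0.00505, and meu19 at 0.99 and 8.19e-05. For SPNCRNA.1600 the authors' deposited table gives 1.13 and an adjusted p of 1.46e-23.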

How the data were processed

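The data are RNA-seq libraries of poly(A)-selected RNA, 3 of wt and 3 of sad1.2 csi1Δ cells, which the labels call biological replicates. For each library the authors deposited 1 table of raw counts per transcript identifier. HISAT2, HTSeq, DESeq2 and build ASM294v2 are named, without versions, per the submitters' processing notes; the strand setting, the annotation release and the handling of multi-mapping reads are not given in the sources used. The authors also deposited their own comparison, whose log2 fold changes and adjusted p-values are quoted as theirs. Normalized values in 18 other deposited columns were not used.

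Members were chosen by raw CPM, and the members and gene lists were chosen with earlier results of these data known. Differences were tested by quasi-likelihood in edgeR 4.0.16 (R 4.3.3, robust, TMM scaling, genotype as the only term) on the deposited counts of all 6 libraries, after filterByExpr (minimum count 10, minimum total 15) left 4941 features, with Benjamini-Hochberg adjustment over all of them. Fold changes are mutant over wt. With 3 libraries against 3, an exact permutation test cannot give a p under 0.1. No 2 libraries of a genotype agreed within sampling noise, with a chi-square per degree of freedom of at least 9.69.

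Names, lengths, strands and neighbours came from the ASM294v3 annotation, joined by systematic identifier. Of 7269 features, 6829 matched and 440 did not, and the latter held between 0.101% and 0.123% of each library's counts. Since the builds differ, no coordinates or sequences are given.

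Genes named are the 5 members of highest wt level, those with a symbol, all called members, the 5 of lowest fold change, the 5 of largest wt variation, 3 on each side of the threshold, called members' neighbours and partners, and up to 3 called genes per list. Genes that a comparison needed beyond these (partners of members with a symbol, members beside sad1 or slp1, adjacent members, list genes without a call) were named after their values were seen. Alternatives were DESeq2 1.42.0, limma 3.58.1 voom, other scalings and filters, a background per kb, replicate number as a block, libraries left out and other membership thresholds.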

Additional observations from a re-analysis of the deposited data

How the results depend on the processing

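Depth limits the weakest members, which have 48 counts in 1 library. Under 16 refits of the same table no member was called lower, and the 9 called members kept a positive log2 fold change in each, the lowest 0.72. Members called higher were 22 with DESeq2, 5 with either background subtracted (per kb, or per own kb, added after the data were seen), 14 with membership at 3 CPM, 3 at 10 CPM, and 15 with membership by the mean over all 6 libraries, which lets in features through their mutant values (202 in all), so that more calls are built in. With 1 library left out, or wt replicate 2 and mutant replicate 3 together, they ranged from 0 to 50. The cause was not tested.

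Deviations of same-numbered libraries correlated at 0.444, −0.493 and −0.535, so the replicate numbers showed no uniform pairing. With 3 libraries per genotype these deviations are not independent. They cannot settle whether same-numbered libraries were handled together. With the replicate block, 0 members and 0 of all features were called by edgeR (members: 34 at an unadjusted p under 0.05; 22 called by DESeq2 without the block), as were 0 without overlap, 0 with an opposite-strand feature and 0 partners, and csi1 (−3.20) and sad1 (0.90) no longer passed.

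Members without overlap called higher were 14 with DESeq2, 3 with either background subtracted or with limma voom and 2 at 10 CPM (0 to 26 with libraries left out). Those with an opposite-strand feature were 2 with either background subtracted, 8 at 3 CPM, 1 at 10 CPM and 8 by the mean of 6 libraries (0 to 20). Partners called were 2 at 3 CPM and by the mean of 6 libraries (0 to 7). RNA decay and termination genes called were 1 with DESeq2 (0 to 4). With libraries left out, csi1 lay between −3.34 and −2.71 and sad1 between 0.86 and 0.92.

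The members' median log2 fold change was 0.35 by library size only, which moved the median of all features to 0.13, 0.16 with membership at 10 CPM, 0.31 at 3 CPM, and 0.35 by the mean of 6 libraries, where the selection raises it. With libraries left out it ranged from 0.13 (without mutant replicate 1) to 0.28. Members near no change turned sign. By library size only SPNCRNA.781 was at 0.10, ncRNA.1343 at 0.11, snoR61 at 0.11 and SPNCRNA.830 at 0.11. With the stricter filter ncRNA.1343 was at 0.0056 and snoR61 at 0.0033, and with the 2 backgrounds subtracted snoR61 was at 0.0107 and 0.0109. SPNCRNA.830 was at 0.0564 with voom and 0.0401 with the replicate block. With libraries left out, SPNCRNA.1115 ranged from −0.20 to 0.27, SPNCRNA.1443 from −0.10 to 0.15, SPNCRNA.1560 from −0.17 to 0.44, SPNCRNA.781 from −0.10 to 0.11, SPNCRNA.830 from −0.23 to 0.35, SPNCRNA.99 from −0.69 to 0.29, ncRNA.1343 from −0.0816 to 0.19 and snoR61 from −0.0646 to 0.0476.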

Other observations

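Chromosome III held the members with the highest median change. Its 37 members had a median log2 fold change of 0.31 and 3 calls, the 60 of chromosome I a median of 0.24 and 2 calls, and the 57 of chromosome II a median of 0.15 and 4 calls, and the difference between chromosomes was not tested. In 14 of the 37 on chromosome III every mutant library lay above every wt library, as in 17 of the 60 on I and 15 of the 57 on II, against 16.7% of all features tested, of which 2.29% were called higher. The 20 members that overlap no feature of the ASM294v3 annotation at all, lncRNAs annotated since included, had 2 calls and a median of 0.27.

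SPNCRNA.1483, a snoRNA primary transcript, was one of the few members below wt in every mutant library, at 18.7, 19.5 and 19.6 CPM in wt and 17.4, 15.4 and 15.1 CPM in the mutant (log2 fold change −0.27, SE 0.12, edgeR adjusted p = 0.228). SPNCRNA.1624, annotated as specific to heat shock, overlapped between the genotypes, at 6.62 ± 1.04 CPM in wt and 6.14 ± 1.96 CPM in the mutant (SD, n = 3; log2 fold change −0.11, edgeR adjusted p = 0.854). SPNCRNA.1159, a member without overlaps, did not overlap between the genotypes and was not called. It read 7.92, 8.57 and 7.54 CPM in wt and 21.1, 15.1 and 12.5 CPM in the mutant (log2 fold change 1.02, SE 0.21, edgeR adjusted p = 0.0600). SPNCRNA.1023 has no base free of other counted features at ASM294v3 positions. It was still counted at 14.1 ± 1.88 CPM in wt and 13.7 ± 0.859 CPM in the mutant (SD, n = 3). These 4 were named after their values were seen.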
